A study of Mus musculus with 2 samples.

Results

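Kinetochore and spindle checkpoint genes were followed through mouse spermatogenesis in single-cell RNA counts. The set holds 35 genes, each found by its symbol among the 31053 genes of the deposited count matrices. By role they are 3 genes of the centromere base, 13 of the inner kinetochore, 8 of the outer kinetochore, 3 of the SKA complex, 5 of the spindle checkpoint, 2 of the outermost layer called the corona, and 1, Cenpj, whose product works at centrioles in spite of its name. Adult C57BL/6 testis gave 1 library labelled Zfp541-/- and 1 wild-type library, both of germ cells sorted for tetraploid DNA content and both made with a 10x Chromium kit that counts transcript 3' ends. The sample titles say whole testis, and the wild-type library holds haploid round and late spermatids in spite of the sort. ZFP541 is a zinc finger protein made in male germ cells. The sources used here do not give the mutant allele or how many mice stand behind each library. The authors' cell table places 17253 cells in 15 stages: 3 stages of differentiating spermatogonia (Diff.Spg1 to Diff.Spg3), preleptotene (pre.L), leptotene (L), zygotene (Z), early, mid and late pachytene (eP, mP, lP), diplotene (D), MI, the stage of the first meiotic division, round spermatids in 3 steps (RS.1 to RS.3) and late spermatids (ES).

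The kinetochore is the protein assembly that joins a chromosome's centromere to spindle microtubules. Nucleosomes that hold the histone variant CENP-A mark the centromere, CENP-C and the inner kinetochore proteins sit on them, and the KNL1, MIS12 and NDC80 complexes of the outer kinetochore grip the microtubule. The spindle checkpoint proteins BUB1, BUBR1, BUB3, MAD1 and MAD2 gather on kinetochores that lack microtubules and hold back anaphase. In the testis, spermatogonia divide by mitosis, spermatocytes then spend a long prophase in which homologous chromosomes pair and recombine, and kinetochores work again in the meiotic divisions.

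The promoters of 5 members on which the stage course turns are shown first. Cenpa, Spc25, Cenpe and Cenpf were high in dividing spermatogonia, all but Cenpa were higher at MI than in late pachytene, and Cenpc1, which encodes CENP-C, was lower at MI. Of the 35 members, 33 were matched in RefSeq's promoter table for GRCm38.p6, with 38 promoters. Spc24 and Ska1 had no entry. Each sequence runs 5′ to 3′ on the gene's strand, from 250 bases before the RefSeq start to 30 after it. They are chr5:30666636-30666915 on the plus strand for Cenpa, chr2:69206184-69206463 on the minus strand for Spc25, chr3:135212313-135212592 on the plus strand for Cenpe, chr1:189688057-189688336 on the minus strand for Cenpf, and chr5:86065554-86065833 on the minus strand for Cenpc1. Capitals mark TTTGAA, the cell cycle homology region motif, CCAAT, the box that NF-Y binds, and GCGGGAA, an E2F type of motif, each searched on both strands.
Cenpa: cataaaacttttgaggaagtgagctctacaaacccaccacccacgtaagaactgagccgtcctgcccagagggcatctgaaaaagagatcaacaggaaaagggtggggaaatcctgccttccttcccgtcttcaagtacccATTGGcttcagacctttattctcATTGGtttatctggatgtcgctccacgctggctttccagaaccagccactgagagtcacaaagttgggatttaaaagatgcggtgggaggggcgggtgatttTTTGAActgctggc
Spc25: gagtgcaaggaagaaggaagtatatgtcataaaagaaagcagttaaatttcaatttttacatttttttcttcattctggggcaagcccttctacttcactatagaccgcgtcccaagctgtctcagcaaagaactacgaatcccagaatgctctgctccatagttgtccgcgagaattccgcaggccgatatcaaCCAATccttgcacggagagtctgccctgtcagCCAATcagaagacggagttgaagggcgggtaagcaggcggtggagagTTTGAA
Cenpe: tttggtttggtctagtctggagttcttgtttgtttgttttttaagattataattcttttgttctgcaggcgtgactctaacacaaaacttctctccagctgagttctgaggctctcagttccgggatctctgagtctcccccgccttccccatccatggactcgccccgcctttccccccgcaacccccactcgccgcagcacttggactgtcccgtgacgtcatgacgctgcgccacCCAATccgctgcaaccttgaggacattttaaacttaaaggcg
Cenpf: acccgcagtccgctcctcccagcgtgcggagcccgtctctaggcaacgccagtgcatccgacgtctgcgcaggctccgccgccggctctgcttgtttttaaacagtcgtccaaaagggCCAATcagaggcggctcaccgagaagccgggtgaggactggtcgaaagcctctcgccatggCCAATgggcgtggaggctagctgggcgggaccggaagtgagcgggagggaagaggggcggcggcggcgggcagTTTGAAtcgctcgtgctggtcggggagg
Cenpc1: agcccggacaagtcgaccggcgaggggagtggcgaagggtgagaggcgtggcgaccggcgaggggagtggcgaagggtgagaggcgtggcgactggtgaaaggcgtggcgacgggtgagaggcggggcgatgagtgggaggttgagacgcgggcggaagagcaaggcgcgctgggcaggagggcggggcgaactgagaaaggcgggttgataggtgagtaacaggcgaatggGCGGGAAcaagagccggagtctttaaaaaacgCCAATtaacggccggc
Cenpa, Spc25 and Cenpf carry TTTGAA just after the start, with CCAAT boxes upstream. Cenpe carries 1 CCAAT box close to its start and neither of the other motifs, and Cenpc1 carries GCGGGAA just before its start and CCAAT just after it. In the whole windows of 250 bases before and 50 after the start, TTTGAA was in 13 of the 38 member promoters (34.2%) against 17.9% of all 32851 promoters in the table. CCAAT was in 24 (63.2%) against 37.4%, and GCGGGAA in 10 (26.3%) against 4.60%. The windows were not matched for base composition, and a match is only a run of letters.

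The libraries differed in their stages and depth. The library labelled Zfp541-/- had 8833 annotated cells and the wild-type library 8420. Median UMIs per cell in mid pachytene were 18665 in knockout-labelled and 7945 in wild-type cells, and in late pachytene 23690 in knockout-labelled and 9210 in wild-type cells. A stage was used with at least 50 cells in the library: 9 stages per library, with 1816600 to 48789361 UMIs each in knockout-labelled cells and 849403 to 33993299 in wild-type cells. Stages from Diff.Spg1 to late pachytene passed in the knockout-labelled library and those from early pachytene to ES in the wild-type library, so they share only the pachytene stages. Zfp541 itself was at 81.9 CPM in knockout-labelled and 28.1 CPM in wild-type mid pachytene cells, which leaves the genotype label unchecked by these 3' counts. The 8 pachytene markers summed to 10815 CPM in knockout-labelled and 11453 CPM in wild-type late pachytene cells, and the 8 spermatogonial markers to 2058 CPM in knockout-labelled and 2247 CPM in wild-type spermatogonia. The 5 markers of diplotene and first division cells summed to 1164 CPM at MI. Their sums in other stages are not set beside it, so the value does not check the MI label. Each library shared 42 of its barcodes with the other, and 0 of the 17 annotated ones had the same stage in both.

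The summed level of the 35 members was highest in preleptotene and lowest in ES. A level here is counts per 1000000 UMIs (CPM) of a stage's summed cells, with an exact Poisson 95% interval for counting error only. CPM cannot tell fewer RNA molecules of a gene from more of all others. In knockout-labelled cells the sum was 4061 CPM in the pooled spermatogonia, 4439 CPM in preleptotene, 4002 CPM in leptotene, 2882 CPM in zygotene, 2901 CPM in early, 2222 CPM in mid and 2044 CPM in late pachytene. In wild-type cells it was 2642, 2261 and 2027 CPM in early, mid and late pachytene, 1865 CPM in diplotene, 2059 CPM at MI, then 1668, 1210 and 527 CPM in RS.1 to RS.3 and 162 CPM in ES. In the knockout-labelled library 11 members had their highest level in preleptotene, 7 in Diff.Spg3, 6 in leptotene, 5 in Diff.Spg1, 3 in early pachytene and 1 each in Diff.Spg2, zygotene and late pachytene. Over the 9 wild-type stages used, from early pachytene to ES, 17 were highest in early pachytene and 30 were lowest in ES. Early pachytene is the authors' label throughout, and an earlier look at these data found its clusters to carry markers of another stage. The 8 highest at MI were Cenpl, Cenpn, Cenpu, Cenpw, Spc25, Ska1, Cenpe and Cenpf. The 75 pooled wild-type spermatogonia were not ranked. They held Spc25 at 124, Cenpe at 152 and Cenpf at 843 CPM, above MI, and the others of these 8 below their MI levels.

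**Figure D1:**
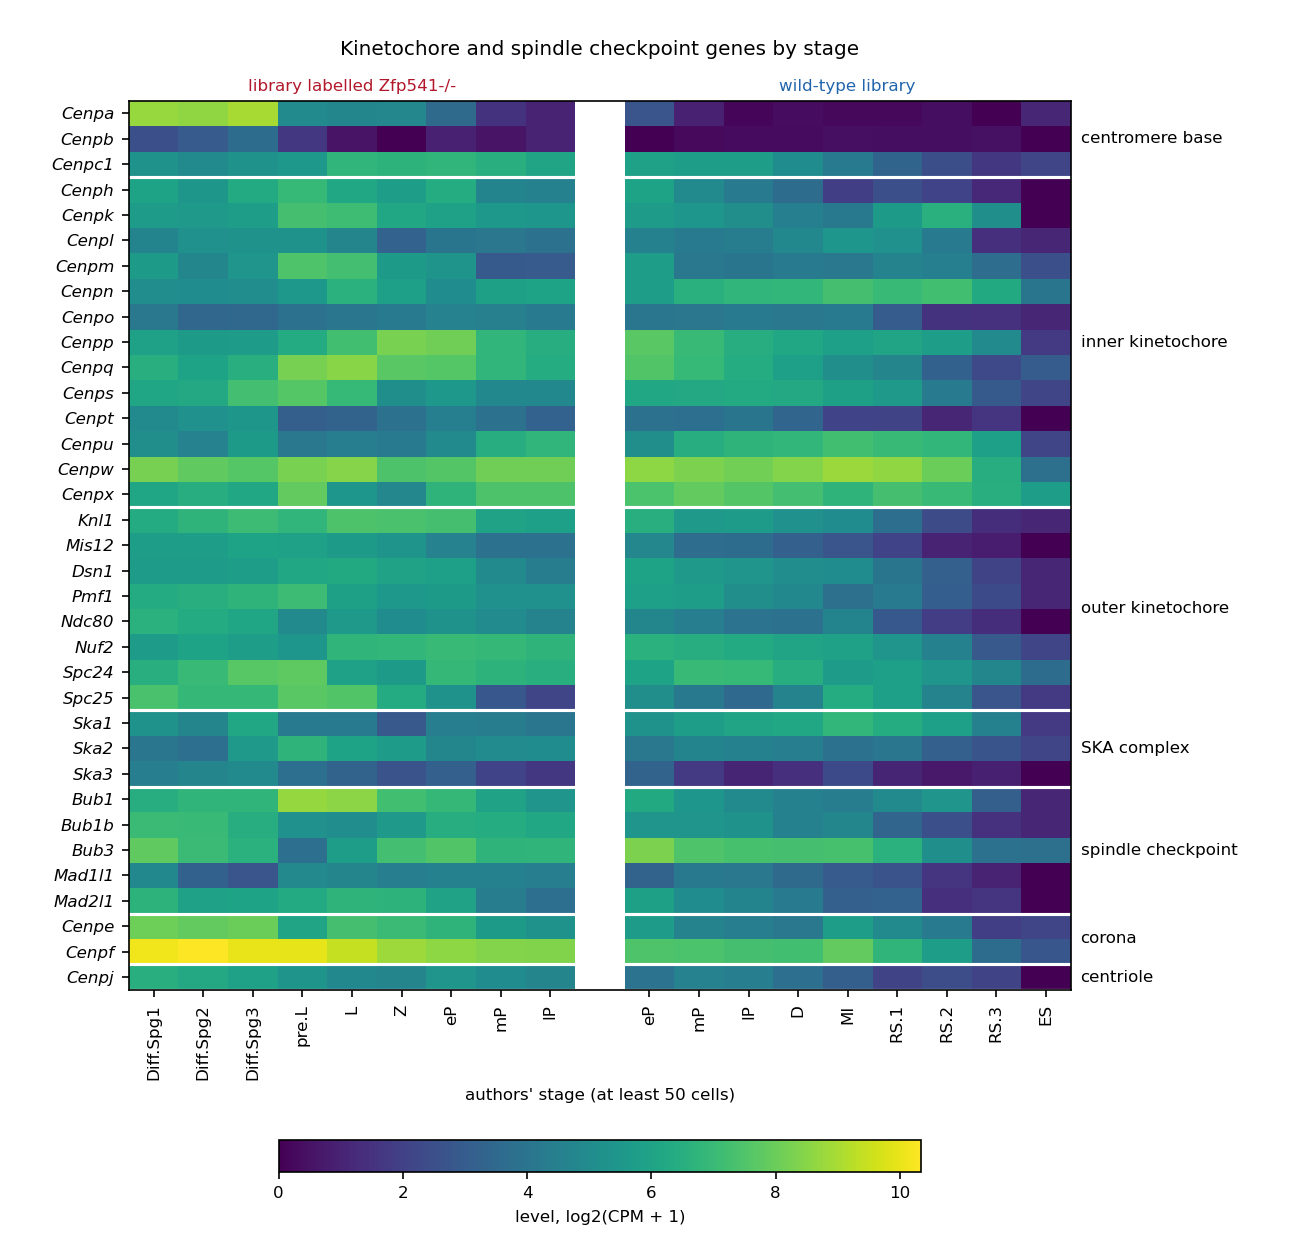
Level of the 35 members as log2(CPM + 1), with the stages of the library labelled Zfp541-/- on the left and those of the wild-type library on the right, for stages with at least 50 cells, and members in rows by role. Cenpa is bright in spermatogonia alone, and nearly all rows are dark in ES. Cenpf is bright in every knockout-labelled stage, its lowest level there being 337 CPM in late pachytene.

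Cenpa, the CENP-A histone itself, was a spermatogonial transcript. Knockout-labelled spermatogonia held 423, 395 and 502 CPM in Diff.Spg1, Diff.Spg2 and Diff.Spg3. Preleptotene cells held 29.2 CPM, leptotene 25.5, zygotene 26.5, early pachytene 10.9, mid pachytene 1.87 and late pachytene 0.960 CPM. That was 3.17 UMIs per knockout-labelled spermatogonium and 0.0231 per late pachytene cell. Wild-type cells held 419 CPM (336 to 516) over 75 spermatogonia and 0.926 CPM in mid pachytene, 0.125 in late pachytene, 0.286 in diplotene and 0.177 CPM at MI. The MI value is 6 UMIs in 2344 cells, so Cenpa RNA was near the limit of counting while other kinetochore genes were high. Cenpb, whose protein binds a centromeric DNA box, stayed at or below 11.7 CPM in every knockout-labelled stage. Wild-type spermatogonia held it at 38.1 CPM, which is 8 UMIs. Its gene overlaps Spef1 on the same strand, which can cost it counts.

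Inner kinetochore genes took several courses. Cenpq and Cenpp, of the CENP-O/P/Q/U group, peaked in early prophase: Cenpq at 300 CPM in preleptotene and 363 CPM in leptotene, against 80.8 CPM in spermatogonia, and Cenpp at 305 CPM in zygotene, against 52.1 CPM in spermatogonia. Cenpm was at 37.1 CPM in spermatogonia, 179 CPM in preleptotene, 150 CPM in leptotene and 6.93 CPM in late pachytene. Cenph reached 121 CPM in preleptotene and 22.1 CPM in late pachytene. Cenps, which pairs with Cenpx in a histone-fold complex that also serves DNA repair, was at 193 CPM in preleptotene, 120 CPM in leptotene, 34.9 CPM in zygotene and 27.3 CPM in late pachytene of the knockout-labelled library. Cenpx itself was at 231 CPM in preleptotene, 41.8 CPM in leptotene, 26.5 CPM in zygotene and 172 CPM in late pachytene there. Wild-type late pachytene cells held Cenps at 79.2 CPM and Cenpx at 191 CPM. Cenpu was the single member with its highest knockout-labelled level in late pachytene, at 110 CPM against 18.1 CPM in zygotene. Cenpn, a reader of CENP-A nucleosomes, was at 32.2 CPM in spermatogonia and 63.8 CPM in late pachytene. Cenpw, a histone-fold partner of CENP-T, kept between 175 and 356 CPM in all 9 knockout-labelled stages.

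In the outer kinetochore, the partners of the NDC80 complex did not share a course. Spc25 was at 129 CPM in knockout-labelled spermatogonia, 209 in preleptotene, 183 in leptotene, 82.3 in zygotene, 38.3 in early pachytene, 5.98 in mid pachytene and 3.46 CPM in late pachytene. Spc24, with which SPC25 forms the inner end of the complex, was at 142, 215, 59.4, 48.2, 118, 103 and 90.1 CPM in the same stages. Nuf2, at the microtubule end, was at 56.6 CPM in spermatogonia and 104 CPM in late pachytene. Knl1, the scaffold for BUB proteins, was highest in leptotene at 173 CPM and at 56.6 CPM in late pachytene. Dsn1, of the MIS12 complex, was highest in leptotene at 77.9 CPM and at 20.1 CPM in late pachytene.

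The spindle checkpoint kinase gene Bub1 had its highest level in preleptotene, when germ cells copy their DNA before meiosis, at 416 CPM (386 to 447), against 102 CPM in the pooled spermatogonia. The 12 S phase genes summed to 1619 CPM in spermatogonia, 1550 CPM in preleptotene and 680 CPM in leptotene. It was at 372 CPM in leptotene and 40.9 CPM in late pachytene. Bub3, whose product carries BUB1 and BUBR1 to KNL1, ran the other way: 223 CPM in Diff.Spg1, 12.7 CPM in preleptotene, 52.4 CPM in leptotene and 183 CPM in early pachytene. Bub3, like Cenpp, Cenpq and Cenpu above, has an opposite-strand neighbour in the annotation. The sources used here do not say whether the counting used strand. Bub1b, which encodes BUBR1, was at 114 CPM in spermatogonia, 32.1 CPM in leptotene and 70.2 CPM in late pachytene. Cenpe, the kinesin motor of the corona that carries chromosomes along microtubules, was at 251 CPM in spermatogonia, 65.5 CPM in preleptotene, 155 CPM in leptotene and 37.9 CPM in late pachytene. Cenpf, a large corona protein, was at 1157 CPM in spermatogonia and 337 CPM in late pachytene. Ska1, of the complex that keeps the kinetochore on the microtubule end, was at 45.1 CPM in spermatogonia, 6.42 CPM in zygotene and 15.8 CPM in late pachytene.

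**Figure D2:**
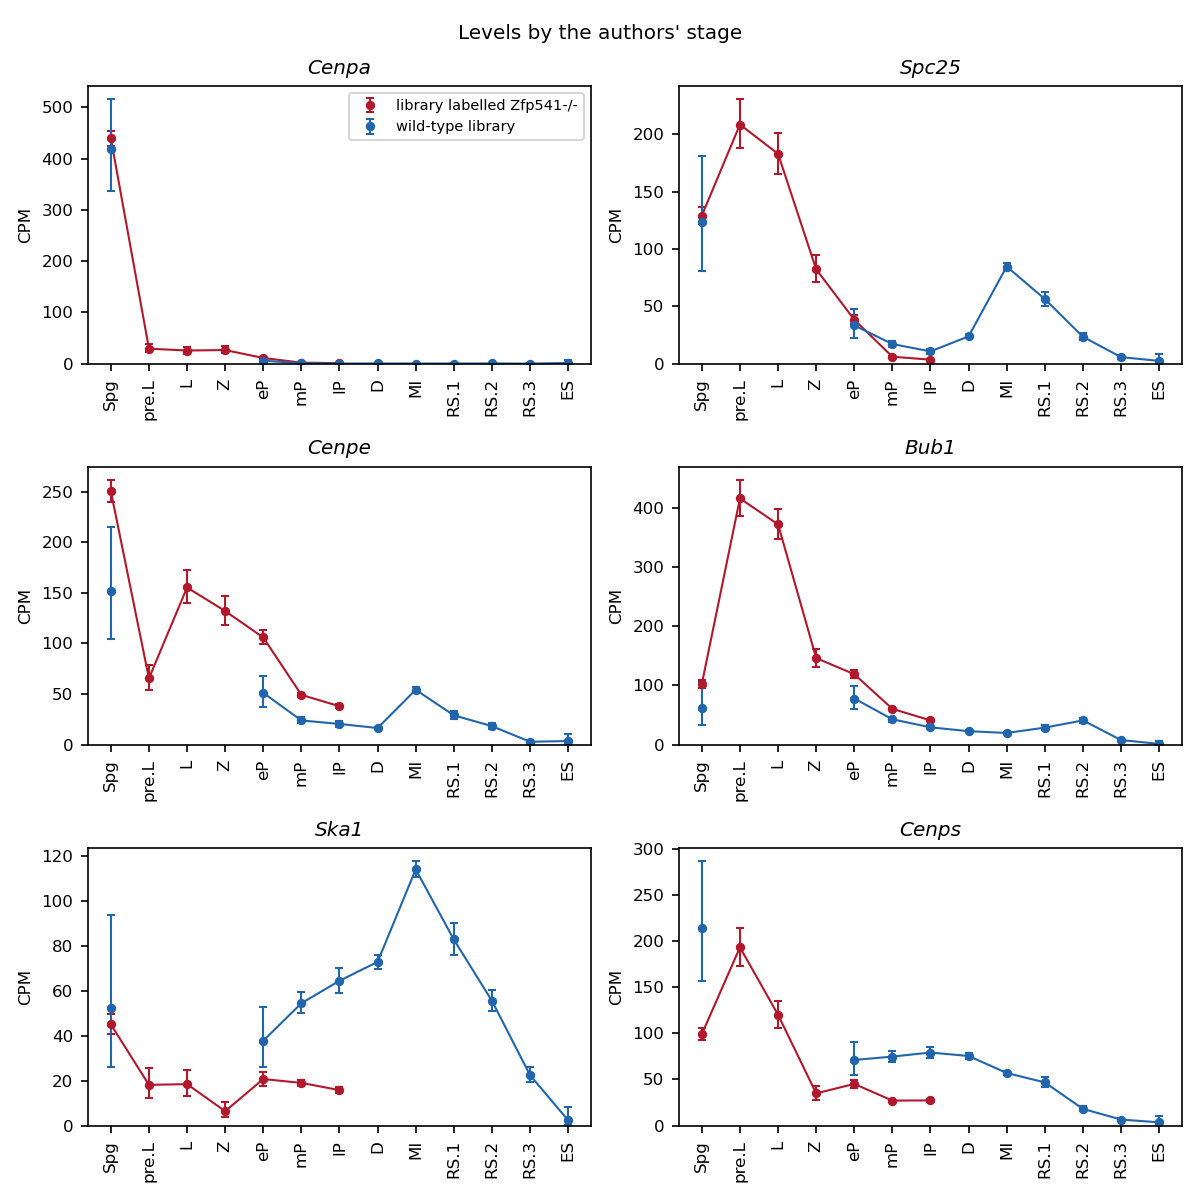
CPM of 6 members by stage, from pooled spermatogonia (Spg) to ES, in the library labelled Zfp541-/- (red) and the wild-type library (blue), with exact Poisson 95% intervals and only stages of at least 50 cells. From early pachytene on, the wild-type points of Spc25, Cenpe and Ska1 are highest at MI, at 84.7, 54.2 and 114 CPM, and those of Cenpa are not. Pooled wild-type spermatogonia are higher still for Spc25 and Cenpe, at 124 and 152 CPM. The wild-type Ska1 and Cenps points lie above the knockout-labelled ones in mid and late pachytene.

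The first stage contrast set knockout-labelled late pachytene cells (1945) against spermatogonia (1173). The log2 ratio had 0.5 counts added to each sum and came with an exact conditional binomial 95% interval. A gene counted as measured at 10 CPM or more in the higher sum and as called at 2-fold or more. With 1 library per genotype there is no replicate check and no test anywhere below, and intervals leave out variation between mice and preparations. In late pachytene 18 of 34 measured members (52.9%) were called lower, where 43.6% of all 9591 measured genes were. Called higher were 2 members (5.88%), where 24.1% of genes were. The median log2 ratio of members was -1.32 in late pachytene over spermatogonia and that of all genes -0.65. Median depth was 23690 UMIs per cell in late pachytene and 6770 in spermatogonia, so a lower CPM need not mean fewer UMIs per cell. Bub1 had 1917 UMIs over the late pachytene cells and 867 over the spermatogonia, and Cenpf 15776 and 9797. Cenpa had 45 and 3724, and Spc25 162 and 1094. These are examples, and the other members were not set out per cell. Scaling by the median of ratios moves every ratio of this contrast up by 0.64, after which 11 members were called lower and 8 higher.

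The deepest drops belonged to Cenpa and Spc25. Cenpa had a log2 ratio of -8.82 (-9.30 to -8.42), with 0.960 CPM in late pachytene and 440 CPM in spermatogonia. Spc25 had -5.22 (-5.47 to -4.98), with 3.46 CPM in late pachytene and 129 CPM in spermatogonia. Ska3 followed at -3.52 and Cenpe at -2.72. Among checkpoint genes, Mad2l1, which encodes MAD2, had -2.48, with 12.8 CPM in late pachytene and 71.3 CPM in spermatogonia. Bub1 had -1.32, while Bub1b had -0.70 and Bub3 -0.39, and under the other scaling Bub3 turned to 0.25. The members called higher were Cenpu at 1.66 and Cenpx at 1.16, both of the inner kinetochore. That role held 7 of the 11 members above 0 (11 of 34 is 32.4%, where 38.0% of genes were above 0), and its median log2 ratio was 0.04, against -1.35 for the outer kinetochore and -2.25 for the corona. Ska3, Mad2l1, Cenpl, Cenpt and other members outside the naming rule are named here and below after their values were seen.

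The second contrast, MI (2344 cells) against late pachytene (827 cells) in the wild-type library, covers the return of a spindle. At MI 3 of 32 measured members (9.38%) were called higher, where 11.1% of 7138 genes were, and 10 (31.2%) lower, where 25.7% were. These shares are close to those of all genes. The median log2 ratio of members was -0.56 at MI over late pachytene and that of all genes -0.33. With the median of ratios, which moves this contrast up by 0.33, 6 members were called higher and 6 lower. Individual members moved far in both directions. Spc25 was at 84.7 CPM at MI and 10.7 CPM in late pachytene, a log2 ratio of 2.98 (2.68 to 3.32). Cenpe was at 54.2 CPM at MI and 20.4 CPM in late pachytene (1.40, 1.18 to 1.65) and Cenpl at 42.2 CPM at MI and 19.9 CPM in late pachytene (1.08, 0.85 to 1.33). Cenpe is also a member of the kinesin family.

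Below the 2-fold line but above 0 at MI were Ska1 at 114 CPM, against 64.5 CPM in late pachytene (log2 ratio 0.82), Ndc80 at 24.7 CPM, against 14.3 CPM (0.78, 0.50 to 1.08), and Cenpw at 444 CPM, against 280 CPM (0.67). The median of ratios puts Ska1 at 1.16 and Cenpw at 1.00, past the line, and Cenpq at -0.95 and Spc24 at -0.96, short of it. Against mid in place of late pachytene cells Ska1 had 1.07, Spc25 2.31 and Cenph -3.37, and Cenpp (-1.15), Cenpx (-1.14) and Bub1 (-1.12) were called lower at MI. Cenpf was at 229 CPM at MI and 155 CPM in late pachytene (0.56). Cenpn was at 156 CPM at MI and 112 CPM in late pachytene (0.47), and Cenpu at 146 CPM at MI and 105 CPM in late pachytene (0.48). Of the 5 checkpoint genes 0 were above 0 at MI over late pachytene, where 36.9% of all measured genes were, and over diplotene 2 of 5 were, where 43.1% of genes were. Bub3 was at 158 CPM at MI and 159 CPM in late pachytene, and the median of ratios puts it at 0.33. Mad2l1 was called lower than in late pachytene at -1.65 and Mad1l1 at -1.32. Bub1 was at 19.7 CPM at MI and 29.2 CPM in late pachytene (-0.57), and Bub1b at 25.7 CPM at MI and 37.6 CPM in late pachytene (-0.55), but Bub1b had 0.21 (0.06 to 0.35) over diplotene. Lower too were Cenph at 2.79 CPM, against 18.4 CPM (-2.72), Cenpt (-2.28), Cenpc1 (-1.56) and Cenpj (-1.40). Also called lower were Cenpq at 33.9 CPM, against 82.7 CPM (-1.29), Spc24 at 49.7 CPM, against 122 CPM (-1.29), Pmf1 (-1.36) and Mis12 (-1.06). Cenpx was at 106 CPM at MI and 191 CPM in late pachytene, Cenpp at 57.0 CPM at MI and 86.7 CPM in late pachytene, Nuf2 at 59.5 CPM at MI and 79.1 CPM in late pachytene, Knl1 at 32.0 CPM at MI and 51.0 CPM in late pachytene, Cenps at 57.0 CPM at MI and 79.2 CPM in late pachytene, Dsn1 at 31.7 CPM at MI and 40.9 CPM in late pachytene, and Cenpm at 16.4 CPM at MI and 15.4 CPM in late pachytene.

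**Figure D3:**
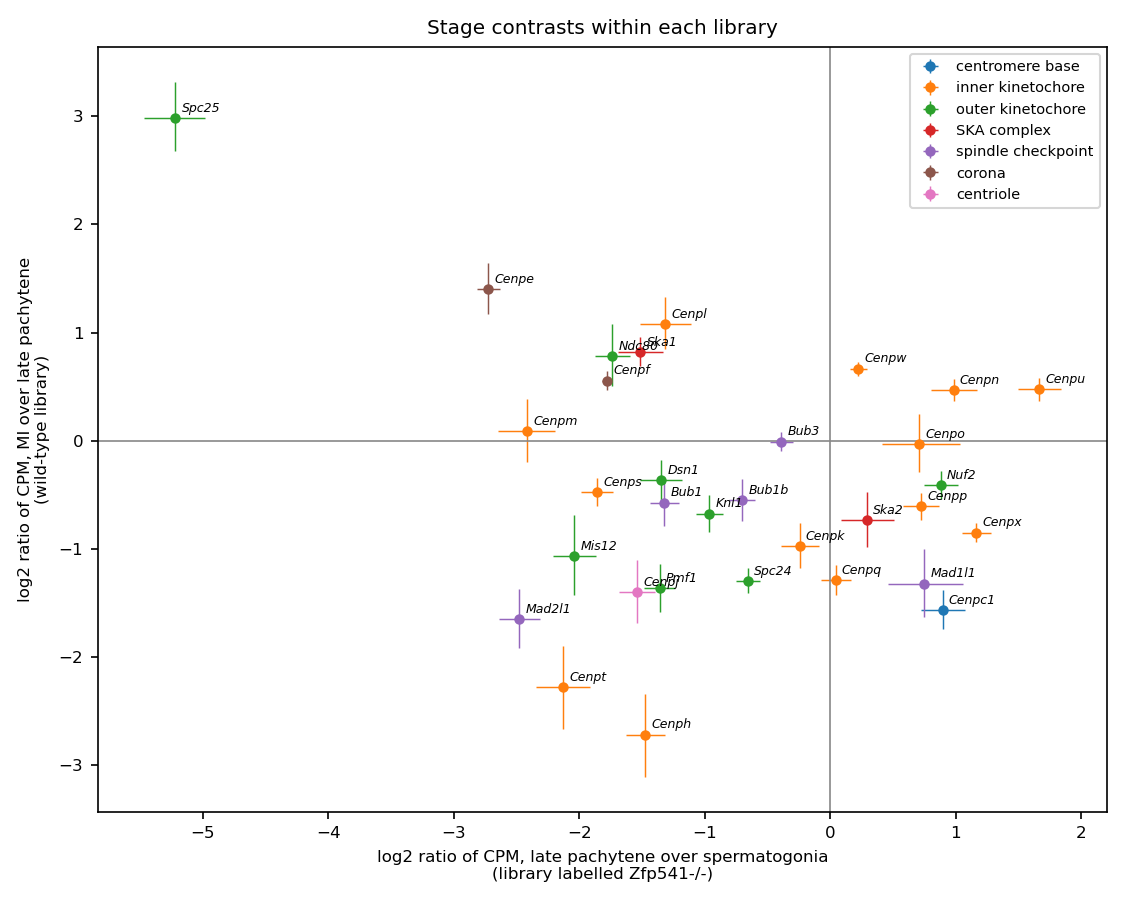
Log2 ratio of CPM at MI over late pachytene in the wild-type library (vertical) against late pachytene over spermatogonia in the library labelled Zfp541-/- (horizontal) for the 32 members measured in both, coloured by role, with 95% counting intervals. Spc25 stands alone at the upper left, at -5.22 and 2.98, and Cenpe, at -2.72 and 1.40, lies next to it.

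The MI cells fell into 3 of the authors' clusters of 914, 1053 and 377 cells, and the corona genes differed among them. Cenpe was at 83.1, 34.0 and 42.1 CPM and Cenpf at 316, 150 and 248 CPM in that order of clusters. Spc25 was at 101, 90.0 and 26.5 CPM, Ska1 at 122, 119 and 79.2 CPM, and Cenpw at 459, 463 and 349 CPM. The clusters are parts of 1 library and were formed from these same counts, so the values are descriptions. Set against diplotene (2234 cells), a comparison added after the data were seen, 2 of 30 measured members (6.67%) were called higher at MI, where 3.86% of all genes were. They were Spc25 at 1.83, with 84.7 CPM at MI and 23.8 CPM in diplotene, and Cenpe at 1.72, with 54.2 CPM at MI and 16.4 CPM in diplotene. Called lower were 3 members (10.0%), where 7.49% of genes were. The median log2 ratio of members at MI over diplotene was -0.20. The summed level of 8 proliferation genes was 769 CPM at MI, 384 CPM in diplotene and 389 CPM in late pachytene, a rise that Spc25 and Cenpe shared and most members did not. The proliferation gene Ccnb1 is also among the markers of diplotene and first division cells. The 12 S phase genes summed to 398 CPM at MI and 883 CPM in late pachytene.

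Between the libraries, knockout-labelled mid pachytene cells (2501) were set against wild-type ones (1207). Called higher were 3 of 32 measured members (9.38%), where 15.0% of 7701 genes were, and called lower 4 (12.5%), where 10.6% were. In late pachytene (1945 knockout-labelled and 827 wild-type cells) 1 member (3.12%) was called higher, where 17.4% of 7635 genes were, and 5 (15.6%) lower, where 14.3% were. The median log2 ratio of members was -0.05 in mid and 0.06 in late pachytene, and that of all genes 0.15 and 0.11. The members summed to 2222 CPM in knockout-labelled and 2261 CPM in wild-type mid pachytene cells, and to 2044 CPM in knockout-labelled and 2027 CPM in wild-type late pachytene cells. Of the 32, 4 (12.5%) were called lower in both stages, where 9.91% of 7355 genes were, and 1 (3.12%) higher in both, where 13.4% were. Both stages come from the same pair of libraries.

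Ska1 had the lowest ratio. It was at 19.0 CPM in knockout-labelled and 54.5 CPM in wild-type mid pachytene cells, a log2 ratio of -1.52 (-1.67 to -1.36), and at 15.8 CPM in knockout-labelled and 64.5 CPM in wild-type cells in late pachytene, a log2 ratio of -2.03 (-2.19 to -1.86). In each of the 7 clusters of mid and late pachytene the knockout-labelled level was between 15.2 and 22.4 CPM and the wild-type level between 47.0 and 74.6 CPM, with no overlap. In wild-type cells Ska1 went on to its peak at MI, a stage with 0 knockout-labelled cells. Cenps was at 27.1 CPM in knockout-labelled and 74.8 CPM in wild-type mid pachytene cells (-1.47, -1.60 to -1.33) and at 27.3 CPM in knockout-labelled and 79.2 CPM in wild-type cells in late pachytene (-1.54, -1.67 to -1.40). Its ranges over the 7 clusters, 22.7 to 33.3 CPM in knockout-labelled and 65.1 to 86.7 CPM in wild-type cells, did not overlap either. Nor did those of Bub3, 93.9 to 132 CPM in knockout-labelled and 141 to 194 CPM in wild-type cells. Those of Cenpn, 47.9 to 64.5 CPM in knockout-labelled and 72.6 to 116 CPM in wild-type cells, were apart too. The share of all genes without overlap was not computed, and clusters of 1 library are not replicates.

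Spc25 was at 5.98 CPM in knockout-labelled and 17.1 CPM in wild-type mid pachytene cells (-1.51) and at 3.46 CPM in knockout-labelled and 10.7 CPM in wild-type cells in late pachytene (-1.63, -2.01 to -1.23). Cenpm was at 6.70 CPM in knockout-labelled and 16.5 CPM in wild-type cells in mid pachytene (-1.30) and at 6.93 CPM in knockout-labelled and 15.4 CPM in wild-type cells in late pachytene (-1.16, -1.46 to -0.84). Cells thinned to 3000 UMIs gave -0.76 for Cenpm in late pachytene, and clusters at equal weight -0.96, both short of 2-fold. Dsn1 was at 29.8 CPM in knockout-labelled and 46.9 CPM in wild-type mid pachytene cells (-0.65) and at 20.1 CPM in knockout-labelled and 40.9 CPM in wild-type cells in late pachytene, called at -1.02. The levels of Spc25 and Cenpm are low in both libraries at these stages, and their cluster ranges overlap between libraries.

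The corona and BUBR1 lay on the other side. Cenpf was at 343 CPM in knockout-labelled and 171 CPM in wild-type mid pachytene cells (1.00, 0.93 to 1.08) and at 337 CPM in knockout-labelled and 155 CPM in wild-type cells in late pachytene (1.11, 1.03 to 1.20). Cenpe was at 49.2 CPM in knockout-labelled and 23.9 CPM in wild-type cells in mid pachytene (1.04) and at 37.9 CPM in knockout-labelled and 20.4 CPM in wild-type cells in late pachytene (0.89). Bub1b was at 83.6 CPM in knockout-labelled and 41.1 CPM in wild-type cells in mid pachytene (1.03) and at 70.2 CPM in knockout-labelled and 37.6 CPM in wild-type cells in late pachytene (0.90). These ratios sit at the 2-fold line, and the median of ratios puts the mid pachytene ones of Cenpf, Cenpe and Bub1b at 0.86, 0.89 and 0.88, all short of it. With clusters at equal weight Cenpf, the member called higher in both stages, had 0.95 in mid and 0.92 in late pachytene, which ends both calls. The cluster ranges of Cenpf, 202 to 405 CPM in knockout-labelled and 87.2 to 216 CPM in wild-type cells, overlap slightly. Bub3 was at 106 CPM in knockout-labelled and 177 CPM in wild-type mid pachytene cells (-0.75) and at 108 CPM in knockout-labelled and 159 CPM in wild-type cells in late pachytene (-0.55), opposite in sign to Bub1b. Bub1 was at 60.3 CPM in knockout-labelled and 42.7 CPM in wild-type cells in mid pachytene (0.50) and at 40.9 CPM in knockout-labelled and 29.2 CPM in wild-type cells in late pachytene (0.48).

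Other members with high levels differed less. In late pachytene Cenpw was at 271 CPM in knockout-labelled and 280 CPM in wild-type cells (-0.04, -0.11 to 0.02), Cenpu at 110 CPM in knockout-labelled and 105 CPM in wild-type cells (0.07, -0.03 to 0.18) and Cenpq at 83.2 CPM in knockout-labelled and 82.7 CPM in wild-type cells (0.01, -0.11 to 0.13). Cenpp was at 86.0 CPM in knockout-labelled and 86.7 CPM in wild-type cells (-0.01), Cenpx at 172 CPM in knockout-labelled and 191 CPM in wild-type cells (-0.15), Knl1 at 56.6 CPM in knockout-labelled and 51.0 CPM in wild-type cells (0.15), Nuf2 at 104 CPM in knockout-labelled and 79.1 CPM in wild-type cells (0.40) and Spc24 at 90.1 CPM in knockout-labelled and 122 CPM in wild-type cells (-0.44). Cenpn was at 63.8 CPM in knockout-labelled and 112 CPM in wild-type cells (-0.82, -0.93 to -0.71). Cenph alone changed sign with both intervals clear of 0, at -0.25 in mid pachytene (24.5 CPM in knockout-labelled and 29.0 CPM in wild-type cells) and 0.26 in late pachytene (22.1 CPM in knockout-labelled and 18.4 CPM in wild-type cells). Of the 14 members outside the naming rule, 12 were measured in each stage, with log2 ratios between -0.70 and 0.67 in mid pachytene and between -0.95 and 0.74 in late pachytene. Cenpa, Cenpb and Ska3 were under 10 CPM in both libraries.

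**Figure D4:**
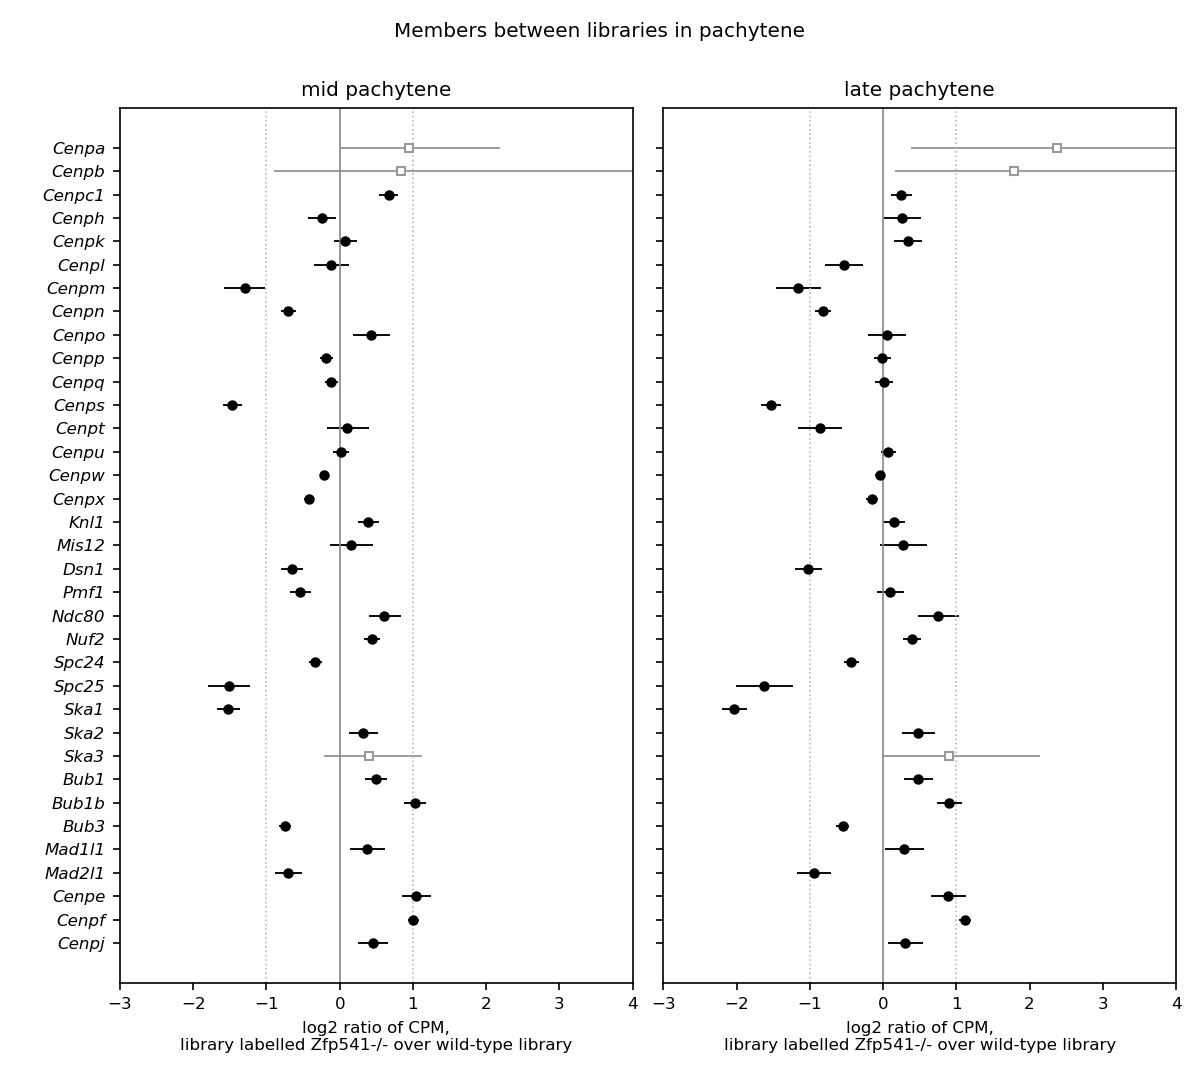
Log2 ratio of CPM of the library labelled Zfp541-/- over the wild-type library for each member in mid (left) and late pachytene (right), with 95% counting intervals, dotted lines at 2-fold, and open grey squares for members under 10 CPM, whose intervals can run past the axis. Ska1, Cenps, Spc25 and Cenpm lie left of the lower dotted line in both panels, and Cenpf lies at or past the upper one.

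RNA of late spermatids differed between the libraries in these same cells. The 5 markers of elongating spermatids summed to 0.041 CPM in knockout-labelled and 275 CPM in wild-type mid pachytene cells and to 0.064 CPM in knockout-labelled and 214 CPM in wild-type late pachytene cells. Of these, 3 were at 0 in knockout-labelled late pachytene cells and none in wild-type ones. In wild-type ES cells, where they are native, the members summed to 162 CPM, with Ska1 at 2.36 CPM and Cenps at 3.53 CPM. Wild-type MI and diplotene cells, of stages with 0 and 13 knockout-labelled cells, held Ska1 at 114 and 73.0 CPM. Spc25 was at 84.7 and 23.8 CPM there, and Cenps at 57.0 and 75.5 CPM. The part of RNA from other cells in the pachytene ratios was not tested. Median depth was 2.35 times higher in knockout-labelled mid pachytene and 2.57 times higher in late pachytene, and with cells thinned to 3000 UMIs Ska1 had -1.83 in mid and -1.94 in late pachytene, and Cenps -1.35 and -1.71. Spc25 had -1.85 in thinned mid pachytene cells and was under 10 CPM in thinned late pachytene cells. Genotype, library and stage composition cannot be told apart with 1 library each.

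Early pachytene was compared within the authors' clusters 12 and 16, by number. An earlier look at these data had found the clusters of this stage to carry markers of another stage. The stage also mixes them differently in each library. In cluster 12 (713 knockout-labelled and 75 wild-type cells) 2 of 33 measured members (6.06%) were called higher, where 14.4% of genes were, and 0 lower, where 8.77% were. In cluster 16 (451 knockout-labelled and 155 wild-type cells) 7 (21.2%) were called higher, where 20.4% of genes were, and 1 (3.03%) lower, where 8.70% were. In cluster 12 Cenpf was at 388 CPM in knockout-labelled and 201 CPM in wild-type cells (0.94), and in cluster 16 at 382 CPM in knockout-labelled and 166 CPM in wild-type cells (1.19), on the same side as later. Cenps was at 42.9 CPM in knockout-labelled and 67.0 CPM in wild-type cells in the first (-0.68, -1.31 to 0.10) and at 48.2 CPM in knockout-labelled and 73.2 CPM in wild-type cells in the second (-0.62, -1.09 to -0.09). Ska1 was at 15.7 CPM in knockout-labelled and 23.5 CPM in wild-type cells (-0.67, -1.69 to 0.78) and at 27.3 CPM in knockout-labelled and 44.9 CPM in wild-type cells (-0.74, -1.34 to -0.05). Spc25 was at 40.9 CPM in knockout-labelled and 33.5 CPM in wild-type cells (0.22) and at 35.1 CPM in knockout-labelled and 33.3 CPM in wild-type cells (0.04), with 0 inside both intervals. In cluster 16 Bub3 was called lower at 162 CPM in knockout-labelled and 336 CPM in wild-type cells (-1.05), while Bub1b, at 82.9 CPM in knockout-labelled and 36.6 CPM in wild-type cells (1.15), and Bub1, at 103 CPM in knockout-labelled and 49.9 CPM in wild-type cells (1.03), were called higher.

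Spermatogonia could be compared only with 75 wild-type cells and 210080 UMIs, a comparison added after the cell numbers were seen. Of 35 members, 4 (11.4%) were called higher in knockout-labelled spermatogonia, where 9.98% of genes were, and 3 (8.57%) lower, where 8.21% were. Cenps was called lower there too, at 99.2 CPM in knockout-labelled and 214 CPM in wild-type spermatogonia (-1.13, -1.54 to -0.64). The others called lower were Cenpb (-2.32, -3.31 to -0.98) and Ska2 (-1.43, -2.16 to -0.49), with 8 and 14 wild-type UMIs. Bub1b was called higher at 114 CPM in knockout-labelled and 28.6 CPM in wild-type cells (1.89, 0.87 to 3.45), the wild-type value being 6 UMIs. Cenpa, at 440 CPM in knockout-labelled and 419 CPM in wild-type cells, had a log2 ratio of 0.06 (-0.24 to 0.39). Elongating spermatid markers summed to 4.84 CPM in knockout-labelled and 562 CPM in wild-type spermatogonia, and their part in these ratios was not tested.

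Within the 1173 knockout-labelled spermatogonia, cells were ranked by the level of 8 general proliferation genes and split into tertiles of 391 cells. The summed member level was 3100 CPM in the low, 3889 CPM in the middle and 5078 CPM in the high tertile, with median UMIs of 6347, 6730 and 7111. In the same order the tertiles held 93, 66 and 59 Diff.Spg1 cells, 125, 157 and 133 Diff.Spg2 cells, and 173, 168 and 199 Diff.Spg3 cells. The part of stage in the tertile ratios was not tested. In the high tertile 25 of 34 measured members (73.5%) were above their level in the low one, where 51.8% of 8855 genes were, and 3 (8.82%) were at least 2-fold higher, where 1.26% of genes were: Cenpe (log2 ratio 1.40, 1.23 to 1.57), Cenpf (1.29, 1.21 to 1.37) and Cenpa (1.24, 1.12 to 1.37). Bub1b had 0.93 and Knl1 0.86. On the other side were Cenpx at -0.59 (-0.87 to -0.30) and Cenph at -0.40 (-0.72 to -0.09), and Spc24 (0.04), Pmf1 (-0.05) and Mis12 (-0.03) had intervals that include 0. The cells are of 1 library, and the tertiles describe it.

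**Figure D5:**
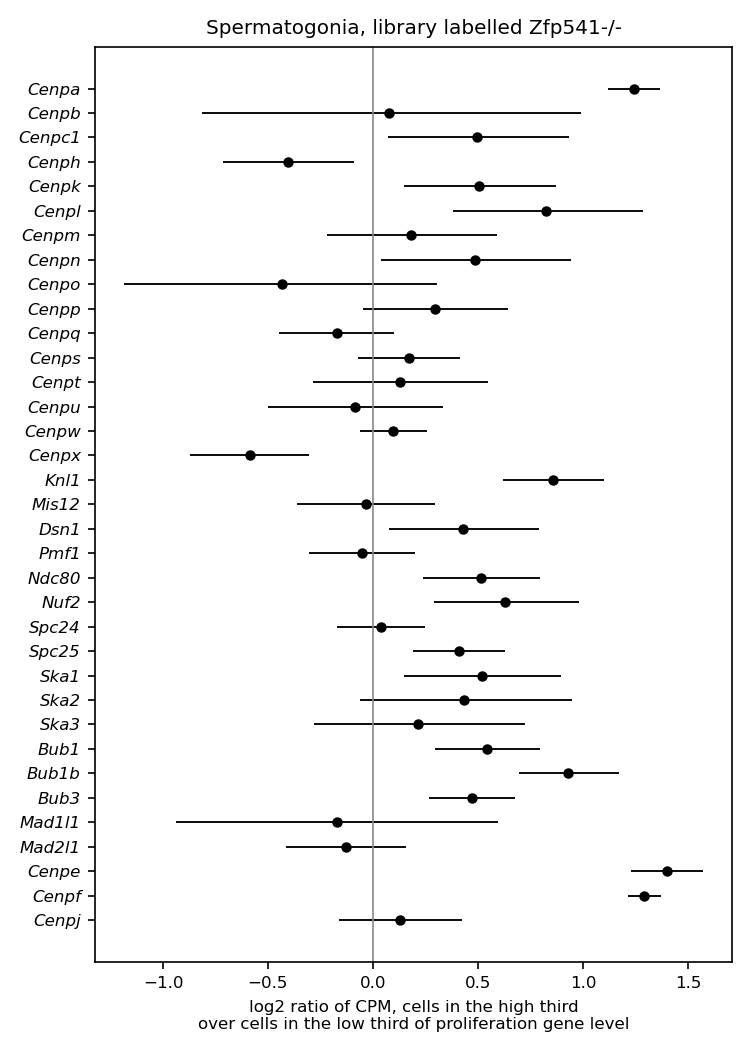
Log2 ratio of CPM of each member in the high over the low tertile of proliferation gene level among 1173 spermatogonia of the library labelled Zfp541-/-, with 95% counting intervals. Cenpe, Cenpf and Cenpa lie past 1, and Cenpx and Cenph lie below 0 with their whole intervals.

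Other centromere, kinetochore and checkpoint genes, a list of 37, frame these values. In late pachytene 1 of 32 measured (3.12%) was called higher in knockout-labelled cells, where 17.4% of all genes were, and 2 (6.25%) lower, where 14.3% were. Sgo1, a shugoshin that guards centromeric cohesion, was at 82.4 CPM in knockout-labelled and 4.14 CPM in wild-type cells (4.29, 3.82 to 4.86). Aurkc, the germline Aurora kinase of the chromosomal passenger complex, was at 1.58 CPM in knockout-labelled and 34.6 CPM in wild-type cells (-4.45, -4.84 to -4.08), and Birc5, which encodes survivin of that complex, at 92.9 CPM in knockout-labelled and 259 CPM in wild-type cells (-1.48). At MI over late pachytene in wild-type cells 8 of 33 (24.2%) were called higher, where 11.1% of genes were, and 9 (27.3%) lower, close to the 25.7% of genes. Plk1, a kinase that acts on kinetochores and spindle poles, was at 82.5 CPM at MI and 6.27 CPM in late pachytene (3.70), Aurkb at 42.5 CPM at MI and 4.76 CPM in late pachytene (3.14), and Ckap5, a microtubule polymerase, at 7.30 CPM at MI and 37.5 CPM in late pachytene (-2.36). In knockout-labelled late pachytene over spermatogonia 4 of 34 (11.8%) were called higher, where 24.1% of genes were, and 18 (52.9%) lower, where 43.6% were. Cenpi, an inner kinetochore gene on chromosome X that was picked out after its value was seen, was at 0.192 CPM in late pachytene and 23.1 CPM in spermatogonia (-6.84).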

How the data were processed

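Single-cell RNA of testicular germ cells was measured in 2 libraries, 1 per genotype. The tools were Seurat 3.2.0 and Cell Ranger 3.1.0 with mm10, per the submitters' processing notes. The authors deposited whole-number counts of UMIs per gene and barcode, with no normalisation. Their cell table gives, per the file headers, each annotated cell's total count, its percent of mitochondrial UMIs, a cluster, a stage and a pseudotime score. The deposited score was left unused, as was the merged matrix.

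UMIs were summed per stage and library in Python 3.11.15 with numpy 2.4.6, scipy 1.17.1 and pandas 2.3.3, and scaled to CPM. A gene was measured at 10 CPM or more in the higher sum, and 2-fold was called. Intervals are 95%, for counting error only. The ratio and interval code was tested on simulated data. A count of 3 in each library is what a count of 0 allows. Doublets were not called again.

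The members and lists were chosen with earlier results of these data known. A member was described with its levels if it was 2-fold different between libraries in mid or late pachytene, was among the 10 highest in spermatogonia, late pachytene or MI, or changed sign between mid and late pachytene with both intervals clear of 0. That named 21 members and left 14. Alternatives were another scaling, pseudocount, filters, thinning, cluster weights and cell filters. GENCODE vM21 places an opposite-strand neighbour over 11 members and a same-strand one over 1.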

Additional observations from a re-analysis of the deposited data

Results flagged for a closer look

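Barcodes that the authors left without a stage also carried the members. Their summed level was 2386 CPM (2356 to 2415) over 2747 unannotated barcodes of the library labelled Zfp541-/-, against 1588 CPM (1572 to 1605) over 4219 of the wild-type library, and these barcodes enter no comparison.

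Cenph drew attention because its sign turned between stages: the log2 ratio of knockout-labelled over wild-type cells was 0.26 in late pachytene and -0.25 in mid pachytene, each with an interval that leaves out 0. The difference between the stages was not tested.

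Spc24 turned sign within pachytene as well. Its log2 ratio was -0.44 in late pachytene, against 2.09 in early pachytene cluster 12 and 0.66 in cluster 16. The wild-type side of cluster 12 held 7 Spc24 UMIs in 75 cells, and the difference was not tested.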

How the results depend on the processing

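Member medians near 0 changed sign in mid pachytene without a filter (0.07) and in late pachytene with other scaling (-0.04) or a minimum of 50 CPM (-0.01). With the other scaling Bub3 turned from -0.39 to 0.25 in late pachytene over spermatogonia and from -0.01 to 0.33 at MI, and members near 0 between the libraries changed sign: Cenpu to -0.13 in mid and -0.03 in late pachytene and Cenpq to -0.10 in late pachytene. Thinning, equal cluster weight or another earlier stage also turned ratios of Cenpm, Cenpp, Cenpq, Cenpu, Cenpw, Knl1 or Bub3 that were between -0.12 and 0.22. Scaling by the median of ratios shifted the median over all genes by 0.15 in mid pachytene, 0.11 in late pachytene, 0.33 in MI over late pachytene and 0.64 in late pachytene over spermatogonia. It gave member medians of -0.20 in mid pachytene, -0.23 at MI and -0.68 in late pachytene over spermatogonia, with 0 members called higher in mid pachytene, 6 higher and 6 lower at MI, and 8 higher and 11 lower in late pachytene over spermatogonia. A minimum of 50 CPM, which leaves fewer genes, gave 2 members lower in mid and 2 lower in late pachytene, a median of -0.21 and 3 lower at MI, and a median of -1.14 over spermatogonia. Clusters at equal weight gave 0 members higher in mid and 0 in late pachytene, where Cenpf had 0.95 and 0.92. Without a filter 3 members were higher in late pachytene, with few UMIs in the added ones. Thinning to 3000 UMIs gave 2 higher in late pachytene and 5 over spermatogonia. Without cells above 5% mitochondrial UMIs 4 were higher over spermatogonia, and against Diff.Spg1 alone the median was -1.06. Other causes were not tested. No paired analysis was possible because each genotype has 1 library, and no replicate could be left out. Depth limits members under 10 CPM and the 75 wild-type spermatogonia.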
